A study of Danio rerio with 13 samples.

Results

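The zebrafish genes muc5.1 and muc5.2 encode secreted, gel-forming mucins, and they were followed across heart preparations from embryos with and without morpholinos against autophagy genes. The genes were taken as every probe set that the platform annotation names muc5.1 or muc5.2. That gave 3 of the 15502 probe sets analysed, 2 for muc5.1 (the one with the higher mean is the first below, the other the second) and 1 for muc5.2. They stand for 2 of the 8793 genes that a probe set with 1 symbol names. The pair was chosen by its measured levels and group differences on these same 13 arrays, so the members' values are a description and carry no test. All 3 probe sets passed the filter on dim signals, which asked for a log2 intensity above the array's own 40th percentile on at least 2 arrays and left 10307 probe sets.

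Gel-forming mucins are very large glycoproteins that make mucus viscous. Each chain is folded and linked by disulfide bonds in the endoplasmic reticulum, receives dense O-linked sugars in the Golgi, and is packed into secretory granules of mucous or goblet cells before release. The related human genes MUC5AC and MUC5B are known for the mucus of the stomach and the airways. In fish, mucous cells lie in the skin, the pharynx and the gut, and working heart muscle is not known as a source of secreted mucin. Autophagy carries cell material to the lysosome, and in mouse intestine it is known to take part in the release of mucus granules from goblet cells.

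All samples were hearts purified from embryos 3 days after fertilization, each measured on its own one-colour Affymetrix array. The 5 groups were uninjected embryos (replicates 1, 2 and 3), embryos given a control morpholino (2 and 3), and embryos given a morpholino against atg5 (1, 2 and 3), becn1 (1, 2 and 3) or atg7 (1 and 2), with injection at the 1-cell stage. No strain, transgene or further agent was named for any group, and the title of becn1 3 spells the gene becn. A morpholino is an antisense oligonucleotide that blocks translation or splicing of an RNA, acts in all tissues of the embryo and lowers the gene product for a limited time. The Atg7 enzyme activates the small proteins that are attached to the growing autophagosome, Atg5 serves in their attachment, and Beclin 1, the product of becn1, is a subunit of a lipid kinase that acts at the first steps. The labels call the samples biological replicates without giving the number of embryos in each, so spreads and tests describe the variation between these preparations.

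The preparations held RNA of other tissues, and 3 arrays stood apart in heart markers. Among 11 markers of heart muscle on the array, the mean log2 level was 7.29 to 7.91 on atg5 1, becn1 1 and atg7 1, against 5.65 to 6.66 on the remaining 10. The cardiac myosin light chain myl7, a defining marker, ran from 6.63 to 10.06 and was lowest on uninjected 1. Other markers went the other way there, as the titin gene ttn.2 was highest on uninjected 1 at 8.85. The mean of the 11 markers on that array was 6.45, within the range of the remaining 10. Median deposited intensities lay between 32.4 and 65.4. The 3' to 5' signal ratio of GAPDH, a sign of RNA integrity, was 2.3 to 3.28 on 12 arrays and 5.98 on atg7 2. The same ratio for the actin gene acta1 was 8.03 to 29.9 on these 12 arrays and 86.2 on atg7 2. The atg5 transcript, measured by its brighter probe set, ran from 8.14 to 8.26 on the atg5 arrays and from 7.87 to 8.22 with the control morpholino. A morpholino can act without lowering the RNA it binds, so this does not check the labels. The becn1 and atg7 transcripts were not analysed here. Since these are bulk samples, fewer mucous cells and less mucin RNA per cell cannot be told apart.

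muc5.2 was brightest in the uninjected hearts and dimmest in the becn1 hearts. After quantile normalization its log2 intensity was 8.73 on uninjected 1, 7.45 on uninjected 2 and 8.78 on uninjected 3. With the control morpholino it was 7.52 on replicate 2 and 6.77 on replicate 3. The dimmest uninjected array thus lay just under the brighter control morpholino array. On the atg5 arrays 1, 2 and 3 the level was 6.53, 6.79 and 6.15, on the becn1 arrays 4.82, 4.25 and 5.91, and on the atg7 arrays 1 and 2 it was 5.75 and 5.73. All 8 knockdown arrays lay below all 3 uninjected arrays, and 7 of the 8 lay below both control morpholino arrays, with atg5 2 the exception by a narrow margin. Here and in the descriptions below, the share of all probe sets with arrays in such an order was not counted. Nothing is therefore read from arrays that lie apart.

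The means of muc5.2 were 8.32 ± 0.75 (SD, n = 3) uninjected, 7.15 ± 0.53 (SD, n = 2) with the control morpholino, 6.49 ± 0.32 (SD, n = 3) with atg5, 5.74 ± 0.01 (SD, n = 2) with atg7 and 4.99 ± 0.85 (SD, n = 3) with becn1. In this order the arrays of neighbouring groups overlapped at 3 of the 4 steps and were separate only between atg5 and atg7. The atg7 preparations differed from each other by far less than those of any other group, which with 2 arrays says little about the spread. Between the highest and the lowest array the level spanned 4.53 log2 units, a 23.0-fold range. Seen as a rank among all probe sets of its array, muc5.2 went from the 89.6th percentile on uninjected 3 to the 32.9th on becn1 2, where its deposited intensity was 17.55, its lowest on any array.

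**Figure D1:**
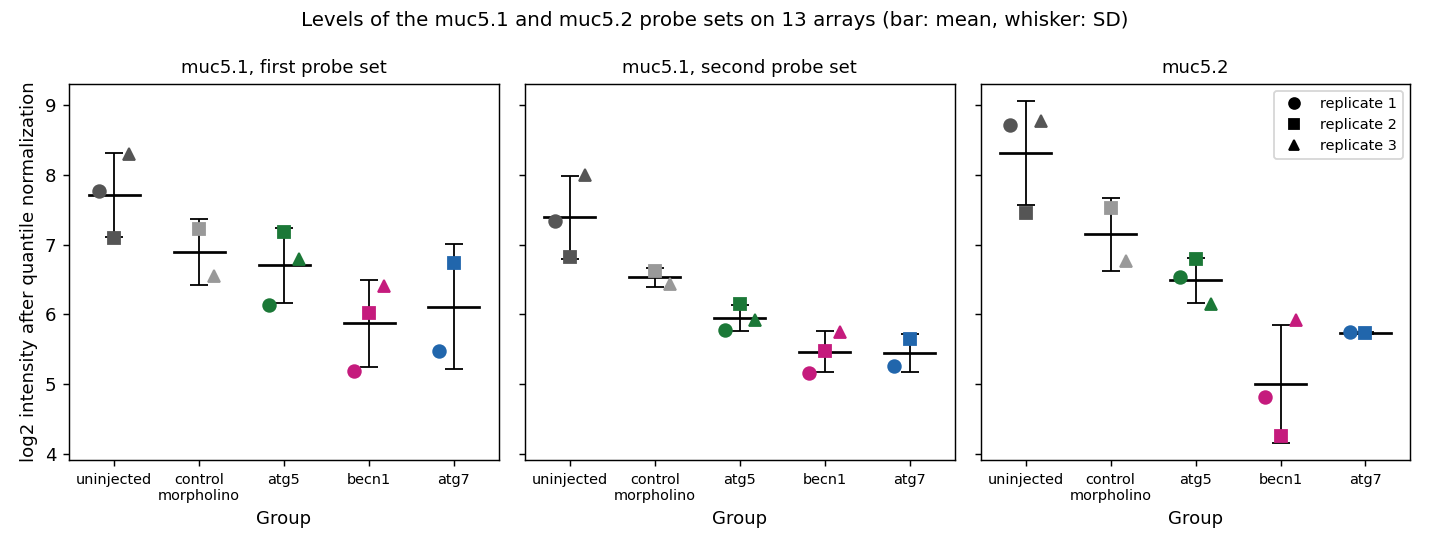
Log2 intensity after quantile normalization (vertical axis) of the 3 mucin probe sets in the 5 groups (horizontal axis), 1 symbol per array shaped by replicate number, with the group mean as a bar and the SD as a whisker. The uninjected arrays are highest on average in every panel, and the muc5.2 panel has the widest range, from 8.78 on uninjected 3 to 4.25 on becn1 2.

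muc5.1 followed the same broad order over a narrower range. Its first probe set read 7.77, 7.09 and 8.30 on uninjected 1, 2 and 3 and 7.23 and 6.56 on control morpholino 2 and 3. It read 6.13, 7.19 and 6.79 on atg5 1, 2 and 3, 5.19, 6.02 and 6.41 on becn1 1, 2 and 3, and 5.48 and 6.74 on atg7 1 and 2. By this probe set the becn1 arrays were separate from both control groups, whereas atg5 2, atg5 3 and atg7 2 lay within the control morpholino range.

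The second muc5.1 probe set was dimmer than the first on every array. It read 7.34, 6.83 and 8.01 on uninjected 1, 2 and 3 and 6.63 and 6.44 on control morpholino 2 and 3. The knockdown arrays read 5.77, 6.15 and 5.92 for atg5 1, 2 and 3, 5.16, 5.47 and 5.75 for becn1 1, 2 and 3, and 5.25 and 5.64 for atg7 1 and 2. All 8 knockdown arrays lay below both control morpholino arrays, and these in turn lay below all 3 uninjected arrays. The first probe set had 5 of 8 knockdown arrays below both control morpholino arrays. Nothing is read from these counts either.

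The group means of the first muc5.1 probe set were 7.72 ± 0.60 uninjected (SD, n = 3), 6.89 ± 0.48 with the control morpholino (n = 2), 6.70 ± 0.53 with atg5 (n = 3), 6.11 ± 0.90 with atg7 (n = 2) and 5.88 ± 0.63 with becn1 (n = 3). Those of the second were 7.39 ± 0.59, 6.53 ± 0.13, 5.95 ± 0.19, 5.45 ± 0.28 and 5.46 ± 0.30 in the same order of groups. The atg7 and becn1 arrays overlapped by either probe set, so their order is not settled. Both probe sets of muc5.1 were lowest, within each knockdown group, on the array numbered 1, the array that also held the highest heart marker levels of its group, and muc5.2 was not. The part of this in the muc5.1 levels was not tested, and the differences of the first probe set from the control morpholino are given without those arrays below.

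Each knockdown was set first against the control morpholino, which shares the injection. Differences are between group means of log2 levels, with the standard error (SE) of the limma fit to all 13 arrays, and both controls serve every knockdown, so the comparisons are not independent of each other. With becn1, muc5.2 was lower by a difference of -2.15 (SE 0.48), a fold of 4.45, and the first and second muc5.1 probe sets differed by -1.02 (SE 0.48) and -1.07 (SE 0.31). Without becn1 1 the first muc5.1 difference was -0.68. All 3 probe sets had separate arrays in this comparison, that is, levels that did not overlap between the groups. The share of all probe sets with separate arrays was not counted, here or in the comparisons below. Groups this small can be separate by chance, and the share called by limma is another measure. Nothing is therefore read from the counts of separate arrays. limma called 0% of the 10307 probe sets here at an adjusted p under 0.05 (544 had an unadjusted p under 0.05). A lower difference than that of muc5.2 was found for 39 probe sets, beside 133 with atg7 and 270 with atg5. The gene was chosen by such differences, so nothing is read from these ranks.

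With atg7, muc5.2 differed from the control morpholino by -1.41 (SE 0.52), a fold of 2.66, and the value was -1.40 without atg7 2, the array with the high GAPDH ratio. The muc5.1 probe sets differed by -0.78 (SE 0.53) and -1.08 (SE 0.34). The first of these rested on atg7 1, since without that array the difference was -0.15 and without atg7 2 it was -1.42, and it was -0.45 without control morpholino 2. Arrays were separate for 2 of the 3 probe sets. By its own measure limma called 0.0582% of all probe sets (1035 had an unadjusted p under 0.05).

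With atg5 the mucins stood closest to the control morpholino. muc5.2 differed by -0.66 (SE 0.48), the first muc5.1 probe set by -0.19 (SE 0.48) and the second by -0.58 (SE 0.31). Only the second probe set of muc5.1 had separate arrays, 1 of 3. By its own measure limma called 0% of all probe sets (248 had an unadjusted p under 0.05). The sign for the first probe set was not stable, with 0.08 on the scale as deposited, 0.15 without control morpholino 2 and 0.10 without atg5 1. The control arrays also set the size for muc5.2, which differed by -0.28 without control morpholino 2 and by -1.03 without control morpholino 3.

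Against the uninjected hearts every mucin difference was larger. With becn1, muc5.2 differed by -3.32 (SE 0.43) and the muc5.1 probe sets by -1.84 (SE 0.43) and -1.93 (SE 0.28). With atg7 the 3 differences were -2.58 (SE 0.48) for muc5.2, -1.61 (SE 0.48) for the first muc5.1 probe set and -1.95 (SE 0.31) for the second, and the first of muc5.1 was -0.98 without atg7 1. With atg5 they were -1.83 (SE 0.43), -1.02 (SE 0.43) and -1.44 (SE 0.28). Arrays were separate for all 3 probe sets with becn1 and with atg7 and for 2 of 3 with atg5. The share of all probe sets with separate arrays was not counted. limma called 0.0097%, 3.08% and 0% of all probe sets in these comparisons, with 1603, 2707 and 1255 at an unadjusted p under 0.05. The single probe set called with becn1 was that of muc5.2, and those called with atg7 included muc5.2 and the second muc5.1 probe set. The genes were chosen with these contrasts known, so nothing is read from these calls.

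The control morpholino itself went with lower mucin levels. Relative to uninjected hearts muc5.2 differed by -1.17 (SE 0.48), a fold of 2.25, and muc5.1 by -0.82 (SE 0.48) and -0.86 (SE 0.31). The first muc5.1 difference was -0.49 without control morpholino 3 and -0.54 without uninjected 3, and the second was -0.55 without uninjected 3. In this comparison 4 of the 10307 probe sets had a lower difference than muc5.2, a rank from which nothing is read, as the gene was chosen by such differences. Arrays were separate for 1 of the 3 probe sets, the second of muc5.1. By its own measure limma called 0% of all probe sets (266 had an unadjusted p under 0.05). A contrast of a knockdown with uninjected hearts therefore includes the difference that goes with the injected control.

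**Figure D2:**
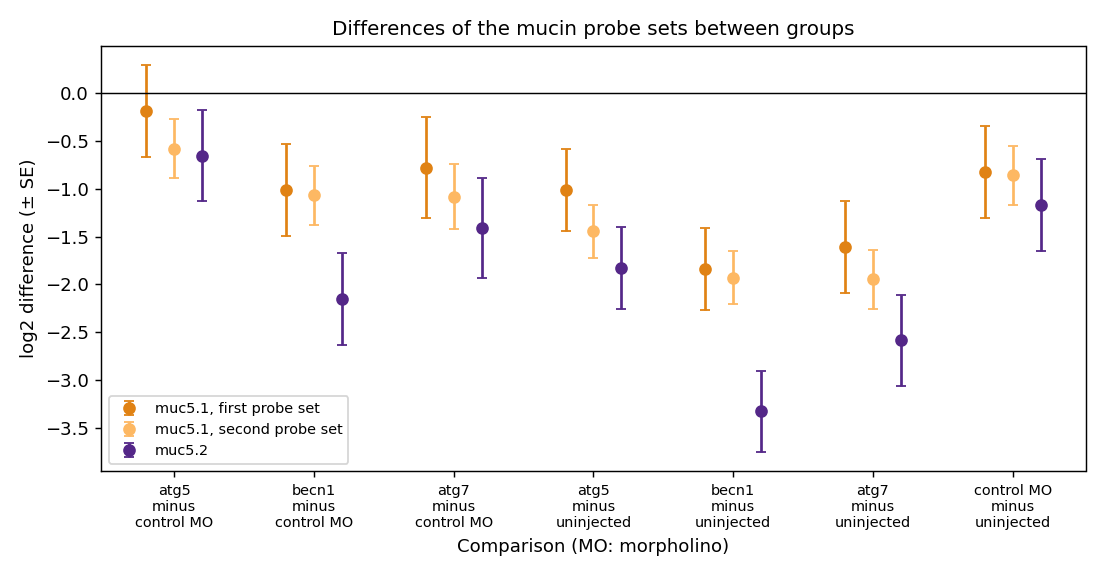
Difference in log2 level between group means (vertical axis, point) with its SE (whisker) for the 3 mucin probe sets in 7 comparisons (horizontal axis, MO for morpholino). All points lie below 0, the lowest is muc5.2 for becn1 against uninjected at -3.32, and the highest is the first muc5.1 probe set for atg5 against the control morpholino at -0.19.

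Among the knockdowns, the mucins had their highest means with atg5. muc5.2 was lower with becn1 than with atg5 by a difference of -1.50 (SE 0.43), with no overlap of their arrays. For muc5.1 the same differences were -0.83 (SE 0.43), with overlapping arrays, and -0.49 (SE 0.28), with separate arrays. Deviations from the group means correlated between same-numbered atg5 and becn1 arrays at r = 0.42, 0.12 and 0.14 for the numbers 1, 2 and 3. Arrays with different numbers could correlate more, as atg5 2 with becn1 3 did at 0.34. Deviations sum to 0 within each group, so these correlations depend on each other and cannot decide whether the numbers mark pairs. Differences within numbers are thus a description and not shown to be paired. Within the numbers 1, 2 and 3 muc5.2 was lower with becn1 by differences of -1.71, -2.54 and -0.24. The first muc5.1 probe set was lower by -0.94, -1.17 and -0.38. Hearts with atg7 differed from those with atg5 hearts by -0.76 (SE 0.48) for muc5.2, with separate arrays, and by -0.59 (SE 0.48), with overlapping arrays, and -0.50 (SE 0.31), with separate arrays, for muc5.1. Between atg7 and becn1 the differences were 0.74 (SE 0.48) for muc5.2 and 0.24 (SE 0.48) and -0.02 (SE 0.31) for muc5.1, and arrays overlapped for all 3 probe sets. Within the numbers 1 and 2, muc5.2 was higher with atg7 than with becn1 by 0.93 and 1.48. The 3 knockdowns, weighted equally, differed from the control morpholino by -1.41 (SE 0.41) for muc5.2, -0.67 (SE 0.42) for the first muc5.1 probe set and -0.91 (SE 0.27) for the second.

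The mucins tracked each other across arrays. Over the 13 arrays, which share groups and normalization, Pearson's r was 0.92 between the muc5.1 probe sets, 0.87 between the first of them and muc5.2, and 0.93 between the second and muc5.2. With each group's mean removed these became 0.88, 0.54 and 0.67, so within groups the muc5.1 probe sets stayed closer to each other than to muc5.2. The 8 knockdown arrays alone gave 0.93, 0.61 and 0.75. These are descriptions of the arrays, and the Affymetrix names of the 3 probe sets carry no suffix for probes shared between genes.

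The becn1 difference was larger for muc5.2 than for muc5.1, and the atg5 difference from the control morpholino was not clearly so, at -0.66 for muc5.2 and -0.58 for the second muc5.1 probe set. Brightness differs between probe sets, so only the movement of the gap between them can be read. The gap of muc5.2 over the first muc5.1 probe set averaged 0.60 ± 0.32 log2 units in uninjected hearts (SD, n = 3), 0.25 ± 0.05 with the control morpholino (n = 2), -0.21 ± 0.54 with atg5 (n = 3), -0.38 ± 0.91 with atg7 (n = 2) and -0.88 ± 0.77 with becn1 (n = 3). The becn1 arrays, at -1.77 to -0.37, were separate from the uninjected arrays at 0.36 to 0.96. The atg5 and atg7 arrays spread across 0 and overlapped the control morpholino range. The gap over the second muc5.1 probe set averaged 0.93 ± 0.41 uninjected (SD, n = 3), 0.62 ± 0.40 with the control morpholino (n = 2), 0.54 ± 0.28 with atg5 (n = 3), 0.29 ± 0.29 with atg7 (n = 2) and -0.47 ± 0.70 with becn1 (n = 3). It moved little from the control morpholino to atg5, and its becn1 arrays, at -1.22 to 0.16, were separate from the uninjected and the control morpholino arrays. Both gaps were lowest on becn1 2, where the deposited intensity of muc5.2 was 17.55. On becn1 1 and 3 the second gap was -0.35 and 0.16, beside 0.34 on control morpholino 3. The share of probe set pairs with separate arrays was not counted, so nothing is read from the separation.

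**Figure D3:**
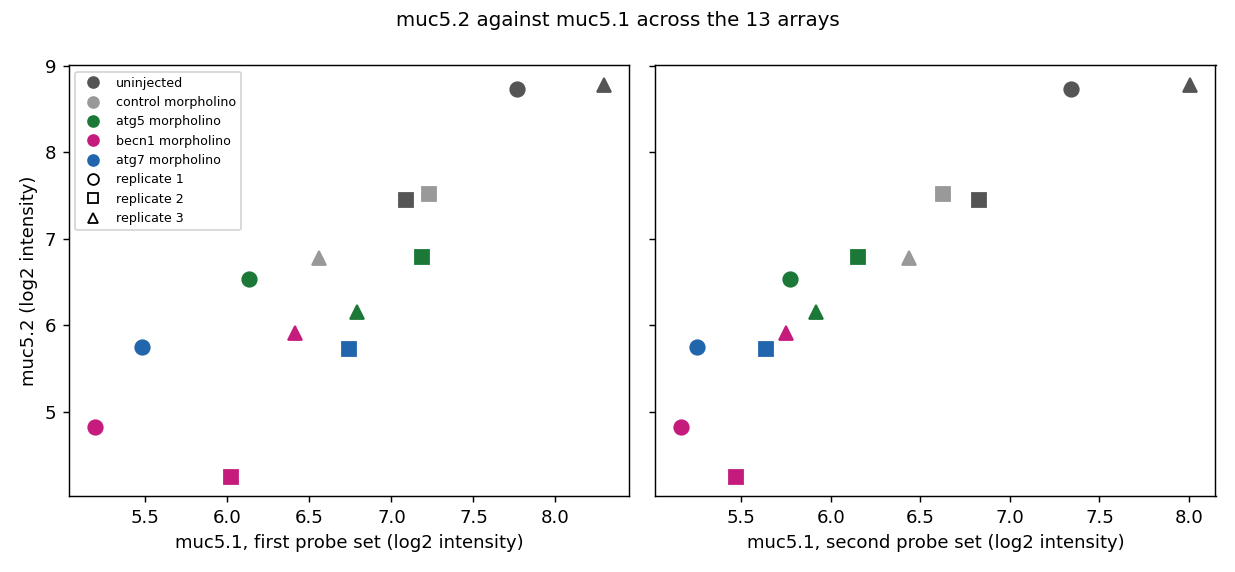
Log2 intensity of muc5.2 (vertical axis) against the first (left) and second (right) muc5.1 probe set (horizontal axes) on the 13 arrays, coloured by group and shaped by replicate number. The points rise together, with r of 0.87 on the left and 0.93 on the right, and becn1 2 lies lowest for muc5.2 at 4.25.

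The current RefSeq gene order of zebrafish (assembly GRCz12tu) was read without genes that have only a provisional locus number. Among the named genes, muc5.1 and muc5.2 are direct neighbours, next to the mucin genes muc2.1 and muc5d. Of the 10 nearest other named genes, 5 have a probe set on the array and 3 passed the filter, and neither of the neighbouring mucins is among these. saal1, on the far side of muc5d, correlated with the first muc5.1 probe set at r = -0.84. For fanci, a DNA crosslink repair gene and the next named gene to muc5.2, r was -0.68. For rhcgb, an ammonia transporter gene of ionocytes, it was 0.44. Relative to the control morpholino the becn1 differences were 0.44 for saal1, 0.16 for fanci and -0.71 for rhcgb, none called by limma (adjusted p = 0.915, 0.966 and 0.912). Thus saal1 and fanci had higher means in the becn1 hearts where the mucins had lower ones.

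Other mucin genes could be followed only in part. Of 20 listed gel-forming mucins and relatives, only muc5.1 and muc5.2 themselves had a named probe set among those analysed. Of 14 membrane mucins, which stay anchored at the cell surface, 3 were measured. For becn1 against the control morpholino the difference was -0.49 for muc13b, a mucin of gut epithelium, -0.20 (SE 0.19) for cd164, a sialomucin, and 0.02 (SE 0.33) for podxl, a podocalyxin (adjusted p = 0.942, 0.93 and 0.997 by limma). muc13b had intensities under 16 on some arrays, where sizes are uncertain.

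Among mucous cell genes, agr2 also had lower means with each knockdown than with the control morpholino. Its product is a disulfide isomerase of the endoplasmic reticulum that in mice is needed to make intestinal mucin. Its log2 level was 9.07, 8.67 and 8.22 on uninjected 1, 2 and 3, 8.46 and 8.40 on control morpholino 2 and 3, and 7.97, 8.20 and 8.05 on atg5 1, 2 and 3. It was 7.04, 7.92 and 7.26 on becn1 1, 2 and 3 and 7.27 and 8.28 on atg7 1 and 2. All 8 knockdown arrays were below both control morpholino arrays, and atg7 2 was the knockdown array nearest to them. The share of all probe sets with arrays in this order was not counted, so nothing is read from it. Knockdown and uninjected arrays overlapped, with atg7 2 above uninjected 3. Of the 10 measured genes of this list, 4 had a higher mean with becn1 than with the control morpholino. The becn1 difference was -1.25 (SE 0.30) against uninjected hearts and -1.02 (SE 0.33) against the control morpholino, and limma called neither (adjusted p = 0.155 and 0.856).

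As a list, most mucous and goblet cell genes had lower means than in uninjected hearts, and limma called none in any of the 7 comparisons. Of 43 listed genes, 12 were on the array and 10, agr2 among them, passed the filter. Against uninjected hearts 9 of 10 had a lower mean with atg5 (median -0.38), 8 with becn1 (-0.31), 8 with atg7 (-0.58) and 9 with the control morpholino itself (-0.28). Against the control morpholino it was 7 with atg5 (median -0.10), 6 with becn1 (-0.11) and 8 with atg7 (-0.24), where the median over all probe sets was 0.00 to 0.04 in the 7 comparisons. The endoderm transcription factor foxa3 had means of 5.15 ± 0.20 (SD, n = 3) uninjected, 4.69 ± 0.11 (SD, n = 2) with the control morpholino and 4.02 ± 0.20 (SD, n = 3) with becn1, on arrays where some of its intensities lay under 16. foxa3 read 3.986, 4.252 and 4.385 on atg5 1, 2 and 3. It read 5.148 on atg7 1, above both control morpholino arrays, and 3.961 on atg7 2. Its relatives foxa1 and foxa2 differed by 0.07 (SE 0.25) and 0.16 (SE 0.27) between becn1 and the control morpholino. None of the 3 was called by limma (adjusted p = 0.909, 0.985 and 0.962).

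Against the control morpholino, genes that build and export mucin chains had medians near 0. With becn1 and atg7 more of them were lower than higher. The 12 measured genes of mucin-type O-glycosylation had a median becn1 difference from the control morpholino of -0.07, with -0.29 (SE 0.26) for galnt2, which starts O-linked sugar chains, and 0.33 (SE 0.28) for gne, which starts sialic acid synthesis. With atg7 their median was -0.10, with 7 lower and 5 higher. Of these, b4galt6 read 6.812 and 6.095 on atg7 1 and 2, against 6.931 and 7.297 on control morpholino 2 and 3. The 57 measured genes of folding, export and stress in the endoplasmic reticulum had a median of -0.06, with 36 lower and 21 higher. With atg7 42 of the 57 were lower (median -0.10). Over all 10307 probe sets 4806 were lower with becn1 and 4952 with atg7. Among the higher ones with becn1 were the oxidase ero1a at 0.84 (SE 0.33) and the chaperone hyou1 at 0.17 (SE 0.20). Together with the membrane mucins and mucous cell genes these made 81 genes, of which limma called 0 in all 7 comparisons. At an unadjusted p under 0.05 stood 1, 3 and 4 of the 81 for atg5, becn1 and atg7 against the control morpholino, 4, 9 and 12 against uninjected hearts, and 2 for the control morpholino against uninjected. Over all 10307 probe sets the same counts were 248, 544 and 1035, then 1255, 1603 and 2707, and 266, so the share among the 81 was not above that of all probe sets in any comparison. Over the 7 comparisons the median of the 81 ran from -0.14 to -0.02.

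**Figure D4:**
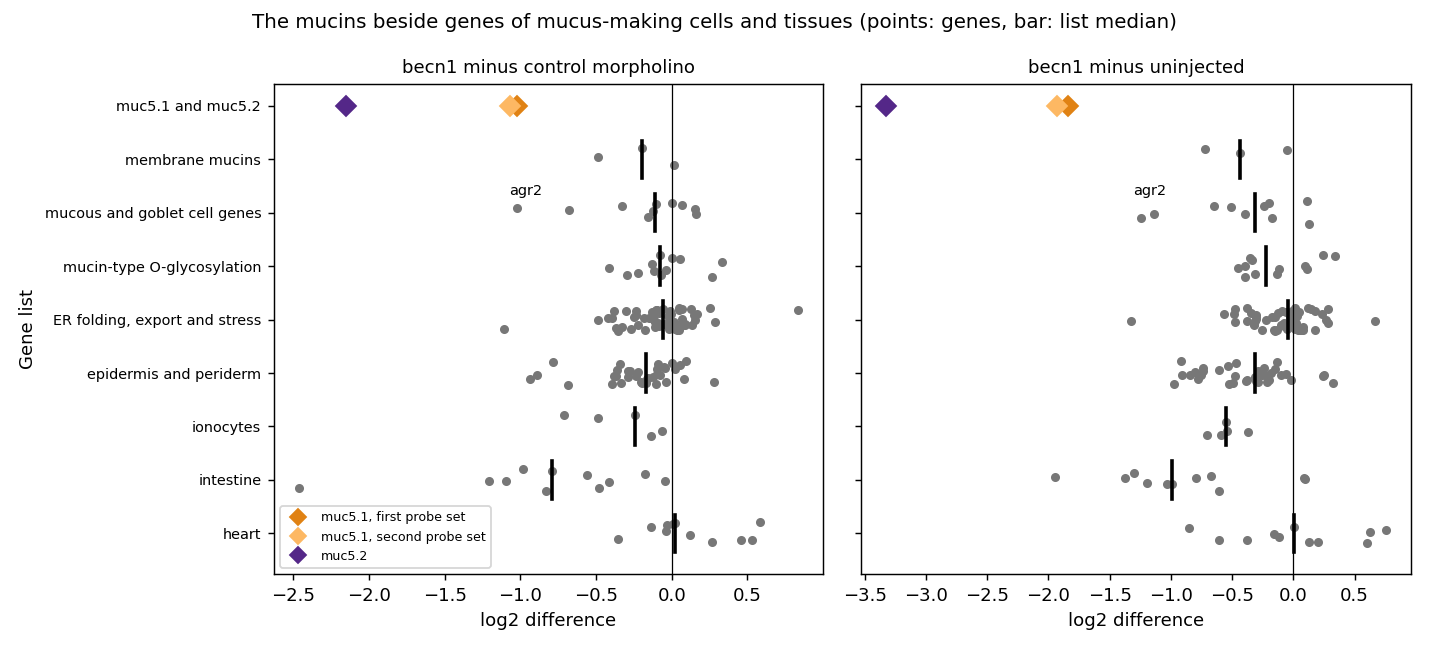
Difference in log2 level (horizontal axis) of becn1 from the control morpholino (left) and from uninjected hearts (right), with the mucin probe sets as diamonds, each list gene as a point and the list median as a bar (ER, endoplasmic reticulum). muc5.2 lies at -2.15 and -3.32, and the mucous cell gene agr2 at -1.02 and -1.25.

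Markers of skin and other tissues moved with the mucins in part. The mean log2 level of 35 epidermis and periderm markers, the surface layers in which skin mucous cells lie, was 8.86 to 9.12 on uninjected arrays, 8.78 to 8.85 with the control morpholino, 8.63 to 8.78 with atg5, 8.23 to 8.90 with becn1 and 8.13 to 8.68 with atg7. Against the control morpholino, 29 of the 35 had a lower mean with becn1 (median -0.17) and 33 of 35 with atg7 (median -0.36), and limma called none (2 and 5 had an unadjusted p under 0.05, beside 544 and 1035 of all 10307). Against uninjected hearts 2 of 35 fell with atg7, where 3.08% of all probe sets were called, the keratin krt97 by 1.22 (SE 0.17, adjusted p = 0.00907 by limma) and the adhesion gene epcam by 1.04 (SE 0.23, adjusted p = 0.041). krt97 kept its call in 19 of 22 alternative settings, losing it on the deposited scale and without either atg7 array, and epcam kept its call in 8 of 22.

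On single arrays the epidermis markers and the mucins went together in some cases and not in others. The epidermis markers were lowest on atg7 1 (8.13) and becn1 1 (8.23). Both muc5.1 probe sets were also lowest on these arrays, the first at 5.48 and 5.19 and the second at 5.25 and 5.16. On becn1 2 the epidermis markers averaged 8.90, within the range of the uninjected arrays, while muc5.2 was at its lowest. The part of skin cells in the mucin differences was not tested. Taken relative to the mean of the epidermis and periderm markers on each array, a scale added after the data were seen, muc5.2 differed by -1.93 with becn1 and by -1.0 with atg7 from the control morpholino, and the first muc5.1 probe set by -0.79 and -0.37. The second muc5.1 probe set differed by -0.84 with becn1 and by -0.67 with atg7 on this scale.

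Markers of intestine, pancreas, liver, eye and ionocytes mostly had lower means with becn1 as well, and other lists were more mixed. The 11 intestine markers averaged 6.58 to 8.02 on uninjected arrays, 6.55 to 7.79 with the control morpholino, 6.08 to 7.71 with atg5, 5.97 to 7.10 with becn1 and 5.78 to 7.18 with atg7, and all 11 had a lower mean with becn1 than with the control morpholino (median -0.79), with none called by limma (1 at an unadjusted p under 0.05). The 15 lens and retina markers averaged 7.83 to 8.84 uninjected, 8.08 to 8.79 with the control morpholino, 7.15 to 7.65 with atg5, 4.19 to 7.39 with becn1 and 4.58 to 6.25 with atg7. All 15 had a lower mean with becn1 than with the control morpholino (median -2.45, none called, 10 at an unadjusted p under 0.05). With atg7, limma called 1 of them lower against the control morpholino and 7 against uninjected, where it called 0.0582% and 3.08% of all probe sets. With atg7 against uninjected it also called 1 intestine marker lower and 2 leukocyte markers higher. In that comparison 1 neuron and glia marker was called higher and 1 lower. The 12 exocrine pancreas markers averaged 5.28 to 7.03 uninjected, 5.86 to 6.13 with the control morpholino, 4.66 to 6.42 with atg5, 4.15 to 5.87 with becn1 and 4.25 to 6.10 with atg7, and 11 had a lower mean with becn1 than with the control morpholino (median -1.79, none called, 3 at an unadjusted p under 0.05). For 19 liver and yolk markers the averages were 8.53 to 10.03, 8.36 to 9.83, 7.66 to 9.34, 7.41 to 8.97 and 7.62 to 9.36 in the same order of groups, with 18 lower with becn1 (median -1.17, none called, 3 at an unadjusted p under 0.05). For 5 ionocyte markers they were 7.46 to 7.82, 7.42 to 7.53, 6.86 to 7.42, 6.47 to 7.72 and 6.50 to 7.26, with all 5 lower with becn1 (median -0.24, none called, 1 at an unadjusted p under 0.05). The lowest averages, 4.15 for exocrine pancreas and 4.19 for lens and retina, lay close to an intensity of 16, under which sizes are uncertain. The medians of these lists are thus uncertain in size. Of 10 pharyngeal and gut endoderm markers, 7 were lower with becn1 than with the control morpholino (median -0.10), and 7 were higher with atg7 (0.32). With becn1, 13 of 19 skeletal muscle (-0.20) and 12 of 19 neuron and glia markers (-0.355) were lower, with 0 and 6 at an unadjusted p under 0.05. Higher with becn1 were 7 of 11 heart (0.02) and 8 of 11 leukocyte markers (0.25). limma called none of these against the control morpholino. Against uninjected hearts, 17 of 19 skeletal muscle markers were lower with the control morpholino (-0.57) and 16 with becn1 (-0.90). With atg5 and atg7 it was 17 each (-1.03 and -1.14), and limma called none. Over all 10307 probe sets 5076, 4757, 4940 and 5061 were lower in these comparisons. Of all 10307 probe sets, 4806 were lower with becn1 than with the control morpholino, and 544 had an unadjusted p under 0.05. The part of these tissues in the mucin differences was not tested.

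The genes with the most similar profiles over the 13 arrays came from a search of 4382 named probe sets whose levels spanned at least 1 log2 unit. For muc5.1, through its first probe set, they were ctsf, a lysosomal cathepsin, at r = 0.95, sypb, a synaptophysin of synaptic vesicles, at 0.94, 2 probe sets of soul4, of the SOUL heme-binding family, both at 0.92, the homeobox gene dlx4b at 0.92, the phospholipase gene plcb4b and the dehydrogenase gene hsd17b8 at 0.91, and the cartilage matrix gene matn1 at 0.90. The opposite profiles were rsl1d1 at -0.95, exosc7, of the RNA exosome, at -0.95, si:ch211-11k18.4 at -0.94 and wdr12 at -0.93. Of these, rsl1d1 and wdr12 act in ribosome assembly. matn1 had group means of 8.47 uninjected, 8.21 with the control morpholino, 7.05 with atg5, 5.19 with becn1 and 5.29 with atg7. The intensities of matn1 and hsd17b8 fell under 16 on at least 1 array, where sizes are uncertain.

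For muc5.2 the most similar were ecrg4a, which encodes a secreted peptide precursor, at 0.93, the synaptotagmin gene syt5a, the collagen gene col11a1a and the transporter gene slc16a12b at 0.90, the vesicle fusion gene vamp1a and the mitochondrial phosphate carrier gene slc25a3a at 0.89, the GABA synthesis gene gad2 at 0.89 and the desmosomal gene dsg2.1 at 0.88. syt5a and slc25a3a had intensities under 16 on at least 1 array. The opposite profiles were the chromatin gene dek and the homeobox gene hoxb9a at -0.92, cpdp at -0.91 and the histone modification factor gene hpf1 at -0.89. The most similar sets of muc5.1 and muc5.2 had 0 probe sets in common. Of the candidates, 31 had a higher r with the first muc5.1 probe set than muc5.2 had, and 0 had a higher r with muc5.2 than the second muc5.1 probe set had. These counts use different muc5.1 probe sets and are not comparable. All the probe sets listed as most similar to muc5.2 had a higher r with it than the first muc5.1 probe set had (0.865).

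**Figure D5:**
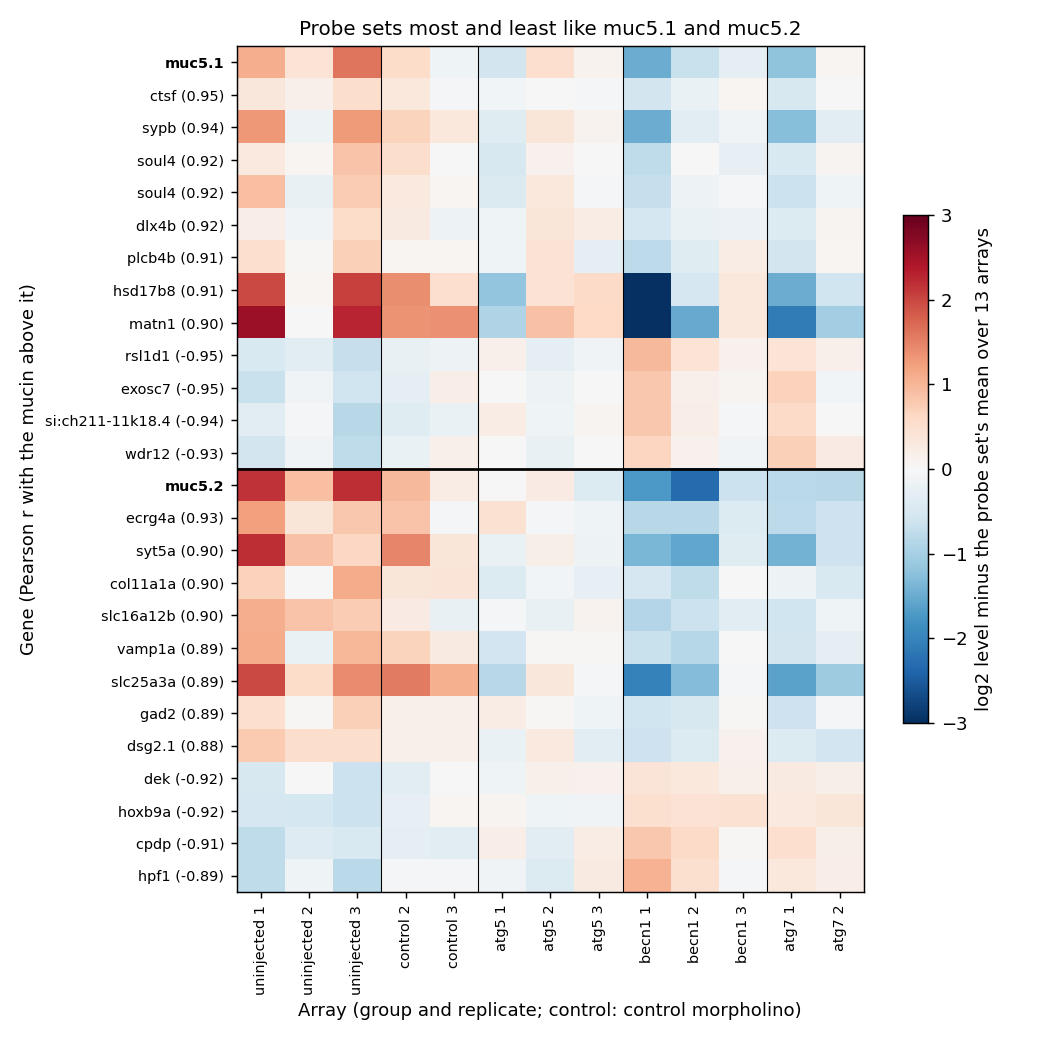
Log2 level minus each probe set's mean over the 13 arrays (colour) for muc5.1, muc5.2 and the probe sets most and least like each (rows, with r), by array (columns, grouped). Rows with positive r have higher means in uninjected than in becn1 and atg7 hearts, as the mucins do, and matn1 has a mean of 8.47 in uninjected and 5.19 in becn1 hearts.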

How the data were processed

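RNA from 13 heart preparations was measured on 1-colour arrays. The authors deposited linear intensities per probe set, made with MAS5 per the submitters' processing notes, and neither version nor scaling target is given in the sources used here. One extract protocol in the labels speaks of tumors, and the other labels of hearts. After 115 controls were dropped, 15502 probe sets remained. Symbols came from the platform's annotation, updated by a current gene list, and 10795 probe sets had 1 symbol, 135 several and 4572 none.

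The log2 intensities were quantile normalized, since the arrays had not been scaled alike, with no pseudocount. limma 3.58.1 in R 4.3.3 fitted the 5 group means to the 13 arrays together, with a prior variance that follows the mean (8 residual degrees of freedom, 4.61 prior). Two-sided p-values received the Benjamini-Hochberg adjustment across 10307 probe sets, and called means an adjusted p under 0.05. The procedure was tested on simulated data with independent noise for each probe set and array. These held no differences shared by many probe sets of an array, so the test cannot vouch for the calls here. Of each list, up to 4 called genes were named, otherwise the 4 with the smallest p against the control morpholino (not all are printed), and for each mucin the 8 most and 4 least similar probe sets. A gene with several probe sets was represented by the one with the highest mean. The mucins, lists and tests were chosen with earlier results of these data known. The number of arrays limits the precision. No sequence was analysed here.

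Deviations from the group means correlated over 0.1 for all 7 same-numbered pairs between knockdown groups (atg5 with becn1 in 3 pairs, atg7 in 2 with each). The same held for 5 of 15 same-numbered pairs that involve a control group. Some arrays with different numbers also correlated, such as atg5 2 with becn1 3 at 0.34. Deviations sum to 0 within each group, and those of the 2 atg7 arrays are exact opposites. Correlations within and across numbers therefore depend on each other and cannot decide whether the numbers mark pairs. Replicate numbers are thus not shown to pair the arrays. Differences within numbers are given between knockdowns only, as a description. The labels do not say what a number marks. Alternatives were other scalings, filters, a floor, the replicate block, joined controls and leaving out arrays.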

Additional observations from a re-analysis of the deposited data

How the results depend on the processing

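Of 271 alternative values of the 21 mucin differences, 266 stayed below 0 and 15 moved by more than the spread between replicates. The values above 0 all belonged to the first muc5.1 probe set for atg5 against the control morpholino, among them 0.06 with the replicate block. For atg5 against the control morpholino the deposited scale gave -0.39 for muc5.2 and -0.31 for the second muc5.1 probe set, and for atg7 the replicate block gave -0.40 for the first. With uninjected and control morpholino arrays as 1 group, muc5.2 differed by -1.36 (atg5), -2.86 (becn1) and -2.11 (atg7). Without the 3 knockdown arrays numbered 1, an alternative added after the data were seen, the first muc5.1 probe set differed for atg7 by -0.15 from the control morpholino and by -0.98 from uninjected, and muc5.2 kept its side. Leaving out 1 array at a time gave ranges for the first muc5.1 probe set with atg7 of -1.42 to -0.15 (control morpholino) and -2.24 to -0.98 (uninjected).

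Counts of called probe sets were far less stable. For becn1 against the control morpholino they were 5 on the deposited scale, 25 with the replicate block, 14 with joined controls, 1 without the arrays numbered 1, and 0 to 1 (without becn1 3) leaving out 1 array. For atg7 against the control morpholino they were 29 deposited, 0 with the replicate block, 137 with joined controls, 0 without a filter, 0 with the 60th percentile filter, 0 with only the compared groups, 13 without the arrays numbered 1, and 0 to 21 (without becn1 1) leaving out 1 array. For atg5 against uninjected, 1 was called with the replicate block and 0 to 1 (without becn1 1) leaving out 1 array. For becn1 against uninjected they were 45 deposited, 4 with 75th percentile scaling, 6 with the replicate block, 0 with only the compared groups, 14 without the arrays numbered 1, and 0 (for 11 of the 13 arrays) to 42 (without becn1 3) leaving out 1 array, with 9 without uninjected 2. For atg7 against uninjected they were 118 deposited, 178 with the replicate block, 122 without a filter, 29 with only the compared groups, 173 without the arrays numbered 1, and 11 (without atg7 1) to 872 (without becn1 1) leaving out 1 array. In the 81 mucin-related genes a call appeared only for pdia2, without the arrays numbered 1 (atg7 against uninjected, -2.32). That fit had atg7 2 as the only atg7 array. pdia2 is also among the exocrine pancreas markers, of which 10 of 12 were lower in this comparison on all 13 arrays (median -1.445). The cause of these moves in the calls was not tested. Same-numbered pairs that involve a control group correlated from -0.41 to 0.41 in their deviations from the group means, so against the controls the replicate block is given as a setting only.

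Of the 8 probe sets most like each mucin, 3 (muc5.1) and 3 (muc5.2) were found again by Spearman's rho, 1 and 0 with group means removed, and 2 and 2 without the 2 arrays farthest from the median.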
